A study of Mus musculus with 12 samples.

Results

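The response of wild-type (WT) kidney CD4 T cells to ischemia-reperfusion injury (IRI) was described by setting the 3 WT IRI libraries against the 3 WT control libraries. The genes described are the protein-coding genes whose mean over the 12 libraries of the series reached 1 FPKM, which are 12065 of the 52632 genes in the table. FPKM is the number of sequenced fragments assigned to a gene, scaled to the length of its transcript and to the size of the library. WT mice were C57BL6/J animals bought from Jackson. In the IRI group both renal pedicles were clamped for 30 min, and kidneys were taken 24 h later. Control mice were a separate group, and the labels do not say whether they had sham surgery. CD4 T cells were sorted by flow cytometry from kidney mononuclear cells after a Percoll gradient, and 1 ng of total RNA entered each library. The 2 other groups of the series are control and IRI mice with the genotype CD4 Keap1 KO on the same background. They were bred in house, with the same surgery and times. Their libraries are used for a comparison of the responses. They also enter the gene filter and the shared estimate of spread behind each WT p-value. How and in which cells Keap1 was deleted is not said in the labels. Nor do they say that the 3 libraries of a group came from separate mice, so a p-value here speaks only of how far these libraries spread, which may be technical.

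CD4 T cells recognise peptide on MHC class II through the T cell receptor (TCR), whose signal is carried by the CD3 chains and the kinase LCK. A healthy kidney holds effector and memory T cells that stay in the tissue, which are known for the transcription factor Hobit, the chemokine receptor CXCR6 and the ATP receptor P2X7. Clamping and reopening the renal vessels damages the tubules, brings in neutrophils and monocytes, and raises cytokines, adenosine and stress hormones, to which T cells in the kidney and in the blood left in it are exposed.

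Before the results, 2 WT libraries stood apart from the other 4. WT control 3 listed 23521 genes at exactly 0 and WT IRI 3 listed 17846, against 11090 to 14149 in the others, and the 3 most abundant genes took 24.8% and 21.6% of their summed FPKM, against 44.9% to 53.2%. WT IRI 3 also had a lower median over the 12065 genes, 6.18 FPKM against 7.57 to 7.92 FPKM. Results are therefore also given without WT control 3 and WT IRI 3, an alternative chosen after the data were seen. Depth is unknown, since the values used are FPKM without counts. As a measure of the signal from genes that T cells do not use, the 1092 olfactory receptor genes had a mean of 1.20 to 1.71 FPKM in the 6 WT libraries, so values near or below that are at the level of this signal.

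The sorted population carried its defining markers. Cd4, the co-receptor used for the sort, was at 85.7, 99.3 and 101 FPKM in WT control and 70.7, 60.6 and 49.7 FPKM in WT IRI. All 3 IRI values were below the controls, but the difference of -0.66 on the log2 scale did not pass the test (SE 0.29, adjusted p = 0.253). Cd8a, which marks the other main T cell class, was at 3.30, 3.72 and 4.46 FPKM in WT control and 2.34, 3.43 and 1.33 FPKM in WT IRI, and Cd8b1 ran from 1.56 to 4.67 FPKM. Keap1 itself was at 8.50, 8.996 and 9.87 FPKM in WT control and 8.80, 6.31 and 6.03 FPKM in WT IRI, which is a difference of -0.35 (SE 0.19, adjusted p = 0.381), and Nqo1, a classical target of the factor that KEAP1 holds back, was at or below 0.543 FPKM in all 6 WT libraries.

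Of the 12065 genes, 632 (5.24%) passed the threshold, an adjusted p under 0.05 in a limma test of log2(FPKM + 1). IRI values were higher for 188 genes (1.56%) and lower for 444 (3.68%). The median difference was 1.29 among the genes that rose and -1.27 among those that fell, against -0.06 over all 12065. In all 632 genes the 3 IRI values lay entirely above or below the 3 control values. Such separation was frequent in general, with 10% of the 12065 genes having all IRI values above the controls and 20.0% having them all below. Leaving out WT control 3 and WT IRI 3 left 114 genes higher and 74 lower, of which 86 and 72 were among the 188 and 444. Rises were thus 29.8% of the calls with all libraries and 60.6% without these 2. Genes named below are the 15 largest rises and 15 largest falls and up to 4 genes of each list with the smallest adjusted p, and any further gene was picked from its list after its values were seen. Of the 103 genes named by that rule that passed, 51 passed without the 2 libraries. All 103 kept their direction under every alternative that tested them, which the filter at a mean of 5 FPKM did for 96. Since the 2 groups were apart in each of these genes, leaving out libraries or changing the pseudocount could not turn the direction. The plot of level against difference shows the genes that passed over the whole range of expression.

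**Figure D1:**
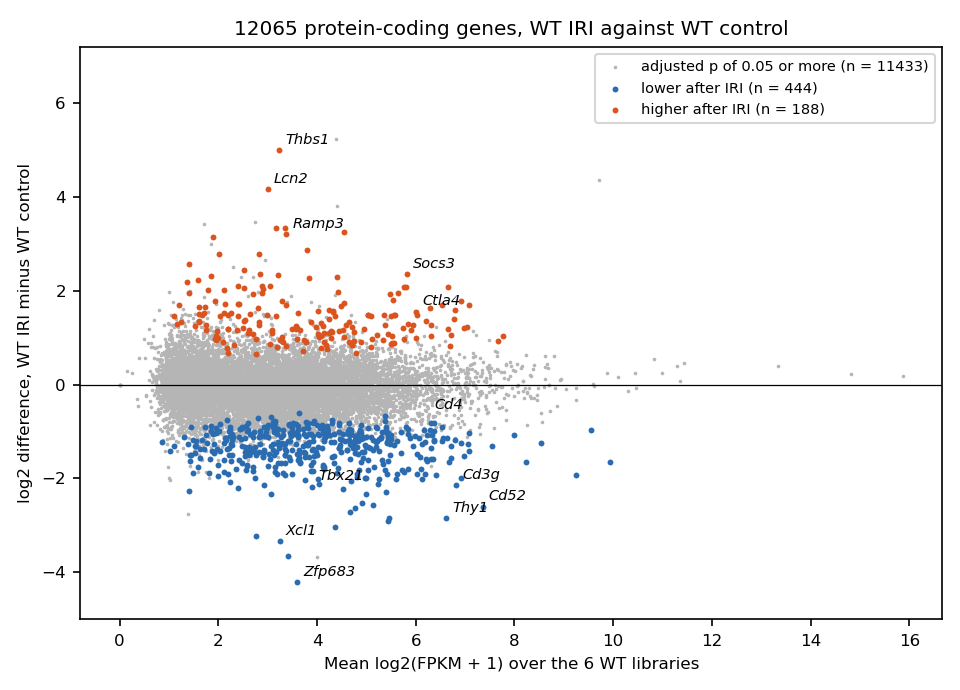
Each point is 1 of the 12065 protein-coding genes, with its mean log2(FPKM + 1) over the 6 WT libraries on the horizontal axis and its log2 difference, WT IRI minus WT control, on the vertical axis. The 188 genes that rose are in orange and the 444 that fell in blue, and among these the largest differences are those of Thbs1 (5.01) and Zfp683 (-4.21). Grey points with large differences, such as Lars2 and Spp1, had libraries of 1 group far apart.

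Genes of tissue-resident lymphocytes were among the steepest falls. Zfp683 (chr4:134053838-134058996 in GRCm38, plus strand), which encodes Hobit, was at 53.3, 53.2 and 47.3 FPKM in WT control and 1.51, 1.22 and 3.06 FPKM in WT IRI. All 3 IRI values were far below the controls, whose mean was 26.6 times the IRI mean, a difference of -4.21 (SE 0.29, adjusted p = 0.000462). The lower IRI values are at the level of the olfactory receptor genes, so the size of the ratio is uncertain. Xcl1, a chemokine that draws cross-presenting dendritic cells, was at 26.4, 30.7 and 30.1 FPKM in WT control and 2.04, 1.42 and 2.61 FPKM in WT IRI, and Cxcr6, the receptor for the chemokine CXCL16, was at 106, 122 and 123 FPKM in WT control and 21.02, 9.39 and 18.4 FPKM in WT IRI. Both were low in every IRI library, with differences of -3.33 (SE 0.29, adjusted p = 0.000629) and -2.85 (SE 0.27, adjusted p = 0.0013). P2rx7, the receptor for extracellular ATP, fell from 48.9 ± 3.79 to 9.81 ± 2.04 FPKM (mean ± SD, n = 3 in each group), a difference of -2.22 (SE 0.27, adjusted p = 0.00293). Itga1, the collagen-binding integrin chain CD49a, fell from 18.2 to 4.18 FPKM (-1.88, SE 0.22, adjusted p = 0.00222). Of the 18 tested genes of the resident list these 5 fell and 1 rose, against 3.68% of all genes for falls and 1.56% for rises, and the same counts were found without WT control 3 and WT IRI 3. The list's median was -0.37, and 12 genes did not pass, among them Cd69 (108 to 81.4 FPKM), Rgs1 (198 to 197 FPKM), Runx3 (40.5 to 39.8 FPKM) and Prdm1 (9.46 to 12.8 FPKM).

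Alongside P2rx7, Art2b fell, which encodes an enzyme that puts ADP-ribose onto cell surface proteins and can open P2X7. It was at 13.1, 20.8 and 28.4 FPKM in WT control and 0.936, 0.817 and 2.08 FPKM in WT IRI. The groups were far apart, the control mean being 16.2 times the IRI mean, a difference of -3.23 (SE 0.35, adjusted p = 0.00197). Its IRI values are near or below the level of the olfactory receptor genes, so the size of the ratio is uncertain. Entpd1, which encodes the ATP-degrading enzyme CD39, fell from 26.7 ± 3.40 to 10.003 ± 2.99 FPKM (-1.36, SE 0.23, adjusted p = 0.0104), whereas Nt5e, which encodes CD73 and makes adenosine from AMP, rose from 10.9 ± 0.634 to 23.6 ± 5.20 FPKM (1.03, SE 0.23, adjusted p = 0.0354). The calls for Entpd1 and Nt5e were lost without WT control 3 and WT IRI 3, with adjusted p = 0.0942 and 0.0892. Of the 12 purinergic genes tested, 3 fell and 2 rose, against 3.68% of all genes for falls and 1.56% for rises.

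In the Th1 list the master regulator and a chemokine receptor under its control were among the genes that fell. Tbx21, which encodes T-bet, was at 31.1, 31.4 and 29.9 FPKM in WT control and 7.36, 5.32 and 5.59 FPKM in WT IRI. The 6 values formed tight, separate groups, with a difference of -2.18 (SE 0.18, adjusted p = 0.000629). Cxcr3, the receptor for interferon-induced chemokines, was at 59.3, 68.4 and 86.2 FPKM in WT control and 16.5, 9.18 and 14.7 FPKM in WT IRI. Every IRI library was far below the lowest control, and the control mean was 5.29 times the IRI mean, a difference of -2.34 (SE 0.25, adjusted p = 0.00192). Il12rb1, a chain of the interleukin-12 receptor, fell from 16.0 ± 2.77 to 3.69 ± 0.832 FPKM (-1.86, SE 0.31, adjusted p = 0.0111), and Ifng, the Th1 cytokine, was at 92.3, 131 and 89.8 FPKM in WT control and 50.6, 19.1 and 21.6 FPKM in WT IRI. Ifng passed the test (-1.86, SE 0.40, adjusted p = 0.0322) with a wider spread than Tbx21. In all, 4 of 16 Th1 genes fell and 1 rose, against 3.68% of all genes for falls and 1.56% for rises. The 11 that did not pass included Stat4 (50.2 to 54.5 FPKM), Il18r1 (24.1 to 17.8 FPKM) and Ccl5 (146 to 45.2 FPKM, adjusted p = 0.0817). The gene that rose was Txk, a TEC family kinase, from 37.9 to 75.4 FPKM (0.96, SE 0.19, adjusted p = 0.0219). The calls for Ifng, Il12rb1 and Txk were lost without WT control 3 and WT IRI 3 (adjusted p = 0.168, 0.076 and 0.0656), and those for Tbx21 and Cxcr3 held.

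Of 13 tested genes of cytotoxic granules, 4 fell and 0 rose, against 3.68% of all genes for falls, and 9 did not pass. Ctsw, the protease cathepsin W, was at 55.9, 50.8 and 70.1 FPKM in WT control and 4.94, 4.22 and 11.1 FPKM in WT IRI, and Nkg7, a granule membrane protein, was at 65.0, 99.4 and 94.4 FPKM in WT control and 12.6, 14.1 and 14.0 FPKM in WT IRI. Neither overlapped between groups, and the differences were -3.04 (SE 0.34, adjusted p = 0.00197) and -2.56 (SE 0.28, adjusted p = 0.00197). Cst7, an inhibitor of granule proteases, fell from 8.61 ± 0.992 to 1.74 ± 0.139 FPKM (-1.81, SE 0.17, adjusted p = 0.0013), and Gzma fell from 5.03 to 1.25 FPKM (-1.42, SE 0.33, adjusted p = 0.0403), whose IRI values are at the level of the olfactory receptor genes. Perforin (Prf1, 4.87 to 3.59 FPKM) and Gzmb (13.2 to 5.23 FPKM, adjusted p = 0.123) were among the 9 that did not pass, and Gzma was lost without WT control 3 and WT IRI 3 (adjusted p = 0.161). The summed level of 12 markers of CD8 T, NK and innate lymphoid cells was 98.5 to 115 FPKM in controls and 56.0 to 86.2 FPKM after IRI. Of the 12, 0 passed in limma, against 5.24% of all genes, and 5 had an unadjusted p under 0.05. The part of these cells in the falls of granule genes was not tested.

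Ly6c2 and Thy1, surface proteins held by a lipid anchor, were also among the steepest falls. Ly6c2, which marks effector T cells and also inflammatory monocytes, was at 25.2, 32.9 and 60.5 FPKM in WT control and 1.57, 1.92 and 2.61 FPKM in WT IRI, a difference of -3.66 (SE 0.31, adjusted p = 0.000629). Thy1, a defining surface protein of mouse T cells, was at 237, 255 and 294 FPKM in WT control and 28.5, 26.4 and 58.1 FPKM in WT IRI, a difference of -2.85 (SE 0.38, adjusted p = 0.00423). Cd52, another anchored glycoprotein, was at 364, 391 and 456 FPKM in WT control and 61.6, 55.9 and 80.8 FPKM in WT IRI (-2.60, SE 0.36, adjusted p = 0.00501). In each of these genes the IRI libraries were far below the controls. In the list of Ly6 surface proteins, in which Thy1 was included, 2 of 10 tested genes fell, against 3.68% of all genes. These were Ly6c2 and Thy1. Ly6e (411 to 229.5 FPKM, adjusted p = 0.0729) and Ly6a (61.9 to 30.4 FPKM, adjusted p = 0.135) did not pass. Lgals1, which encodes galectin-1, a sugar-binding protein of activated T cells, fell from 66.6 ± 23.6 to 9.17 ± 3.11 FPKM (-2.72, SE 0.33, adjusted p = 0.0027). Clec2d, a ligand of the receptor NKR-P1B, fell from 117 ± 9.12 to 15.7 ± 7.39 FPKM (-2.90, SE 0.45, adjusted p = 0.00738). Asb2, a component of a ubiquitin ligase, fell from 17.9 ± 0.935 to 2.99 ± 1.89 FPKM (-2.34, SE 0.34, adjusted p = 0.00643).

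**Figure D2:**
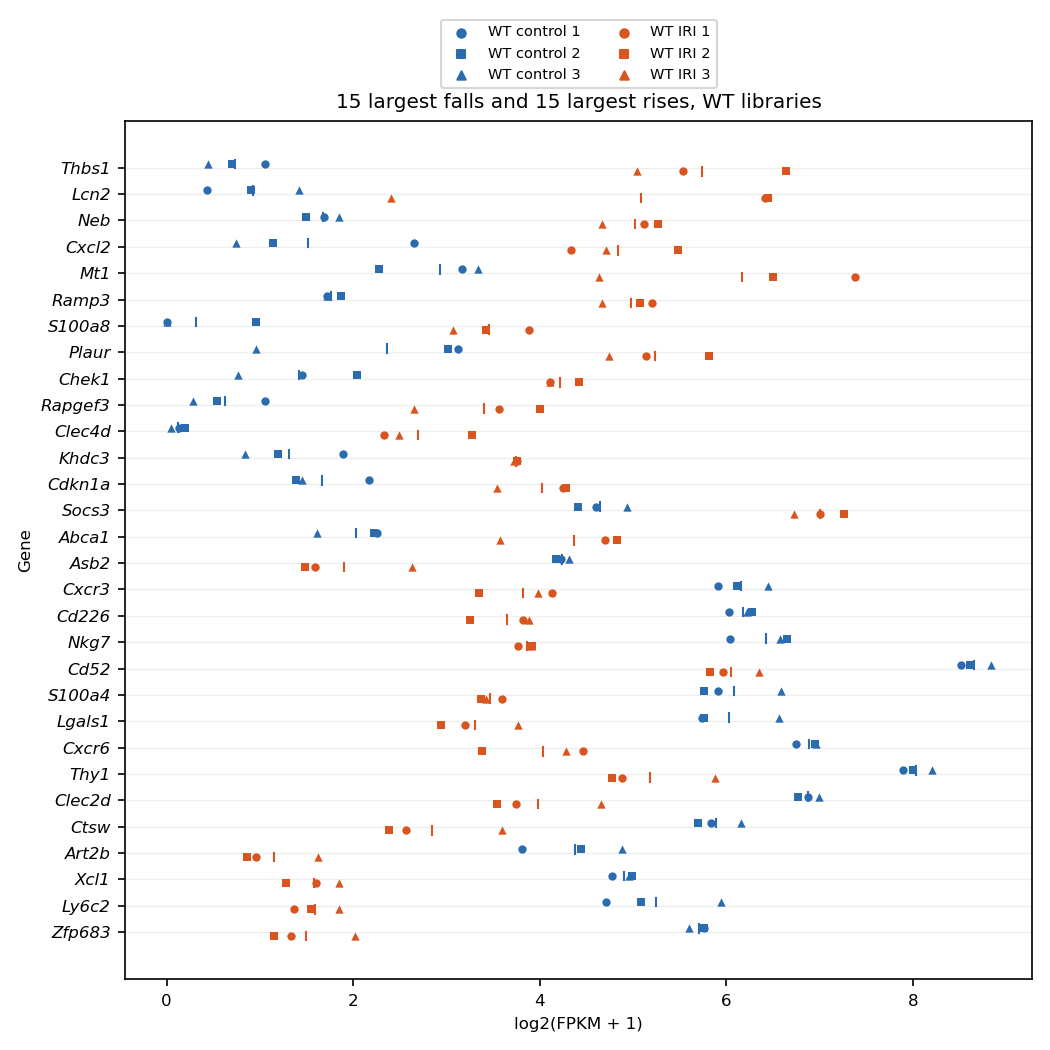
The 15 largest rises and 15 largest falls among genes past the threshold are shown as log2(FPKM + 1) in each of the 6 WT libraries, blue for control and orange for IRI, with a vertical bar at the group mean. In all 30 genes the 2 groups do not overlap, and WT IRI 3 (orange triangles) is the IRI value nearest to the controls for Lcn2, Mt1, Abca1, Thy1 and Zfp683.

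Parts of the TCR complex fell while others did not pass. Cd3g was at 215, 236 and 256 FPKM in WT control and 52.8, 45.9 and 58.9 FPKM in WT IRI, and Cd3e at 213, 209.8 and 194 FPKM in WT control and 98.8, 85.4 and 73.8 FPKM in WT IRI. Both had every IRI value below every control, with differences of -2.15 (SE 0.21, adjusted p = 0.00139) and -1.26 (SE 0.19, adjusted p = 0.0069). Cd3d (33.4 to 17.6 FPKM, adjusted p = 0.0671) and Cd247 (63.0 to 44.4 FPKM, adjusted p = 0.252) did not pass. Lck, the kinase that starts TCR signalling, fell from 215 ± 20.9 to 74.1 ± 9.95 FPKM (-1.53, SE 0.25, adjusted p = 0.00993), and Cd5, a negative regulator of that signal, from 55.9 ± 4.83 to 20.6 ± 1.82 FPKM (-1.40, SE 0.24, adjusted p = 0.0111). In total 8 of the 23 genes of this list fell, against 3.68% of all genes, and 0 rose, with a list median of -0.65. The 15 others included Zap70 (82.1 to 52.1 FPKM), Lat (121 to 77.6 FPKM) and the naive-cell factors Tcf7 (178 to 229 FPKM) and Lef1 (116 to 151 FPKM). Only Cd3g and Cd3e still passed without WT control 3 and WT IRI 3. The receptor's own constant genes, which the annotation does not type as protein-coding and which are therefore outside the 12065, also fell: Trac went from 424, 443 and 466 FPKM to 259, 226 and 218 FPKM (-0.92, SE 0.20, adjusted p = 0.0331). Because these are bulk libraries, fewer cells of a type and less RNA of a gene per cell cannot be told apart.

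Costimulatory and TNF family genes showed 8 falls and 1 rise among 19 tested, against 3.68% of all genes for falls and 1.56% for rises. Cd226, an activating receptor for nectin-like ligands, was at 64.5, 76.5 and 73.8 FPKM in WT control and 13.1, 8.49 and 13.8 FPKM in WT IRI, and Cd40lg, the ligand with which helper cells activate B and dendritic cells, at 77.9, 89.2 and 77.8 FPKM in WT control and 20.5, 20.0 and 22.7 FPKM in WT IRI. Tnf was at 25.7, 25.5 and 28.4 FPKM in WT control and 7.15, 5.99 and 4.32 FPKM in WT IRI. All 3 genes had narrow, separate groups, with differences of -2.53 (SE 0.21, adjusted p = 0.000629), -1.90 (SE 0.15, adjusted p = 0.000629) and -2.03 (SE 0.23, adjusted p = 0.00197). Tnfsf10, which encodes the death ligand TRAIL, fell from 18.1 ± 1.05 to 5.36 ± 1.56 FPKM (-1.62, SE 0.22, adjusted p = 0.00434), and Tnfsf14 (LIGHT), Tnfsf11 (RANKL), Cd27 and Cd44 fell as well. Tnfrsf9, which encodes 4-1BB, rose from 2.003 ± 0.651 to 8.97 ± 2.40 FPKM (1.73, SE 0.36, adjusted p = 0.0275). Cd28 (97.7 to 87.0 FPKM, adjusted p = 0.699) and Icos (52.0 to 51.3 FPKM, adjusted p = 0.998) did not pass. In the fit without WT control 3 and WT IRI 3, 6 of the 8 falls still passed, and Cd27, Cd44 and Tnfrsf9 did not (adjusted p = 0.198, 0.0656 and 0.128).

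Receptors that guide T cells into inflamed tissue fell with Cxcr6 and Cxcr3. Ccr2, the receptor for CCL2, which monocytes also carry, fell from 56.2 ± 4.02 to 17.9 ± 2.42 FPKM (-1.60, SE 0.27, adjusted p = 0.0107). Itgb7, an integrin chain used for homing to mucosa, fell from 93.8 ± 5.39 to 24.3 ± 1.51 FPKM (-1.90, SE 0.28, adjusted p = 0.00669). The LFA-1 chains Itgal (128 to 36.8 FPKM, -1.79) and Itgb2 (179 to 59.8 FPKM, -1.57) and the shared chain Itgb1 (164 to 43.5 FPKM, -1.92) also fell. In all 8 of 22 tested genes of the list fell, against 3.68% of all genes, with Ccr1 as the single rise. Of the 8, 4 passed without WT control 3 and WT IRI 3, where Ccr1 (adjusted p = 0.0567), Ccr2, Itgb7, Itgal and Itgb2 did not (adjusted p = 0.0874, 0.0656, 0.0582 and 0.074). Receptors of recirculating cells did not pass: Ccr7 and S1pr1 went from 42.6 to 41.7 FPKM and 59.4 to 80.7 FPKM, with adjusted p = 0.951 and 0.405. In the list of naive and recirculating genes 1 of 18 rose and 1 fell, against 1.56% of all genes for rises and 3.68% for falls. Satb1, a chromatin organiser, rose (146 ± 14.7 to 277 ± 19.5 FPKM, 0.92, SE 0.20, adjusted p = 0.0311). Ccr9 fell (6.95 to 2.63 FPKM), and both calls were lost without WT control 3 and WT IRI 3. Ccr4, a receptor of Th2 and skin-homing cells, fell from 8.58 to 2.56 FPKM (-1.44, SE 0.29, adjusted p = 0.0251), which was likewise lost there (adjusted p = 0.101).

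Among interferon-stimulated genes there were falls and no rises. Of 38 tested, 36 had a difference below 0, against 54.7% of all genes, and 11 passed as falls, against 3.68%, with 0 rises and a list median of -0.90. Such genes are known for the interferon-stimulated response element, whose core was searched as GAAA, any 2 bases and GAAA again, on both strands, in the 250 bases before each RefSeq start. A window was found for 27 of the 38 genes, and 18 of these (66.7%) held the core in at least 1 window, against 3.5% of the 9489 of the 12065 genes with a window and 2.86% of their 12091 windows. Since such genes are known for this element, that share describes the list and not the falls. The core was in 4.72% of the windows of genes that fell and in 5.45% of the windows of genes that rose. Oas3 and Ifi203 are the named genes among the 18, and their windows (RefSeq, GRCm38.p6) are shown in the direction of the gene, with the core in capitals. Overlaps with other motifs were not scored. The windows lie at chr5:120777660-120777909 on the minus strand for Oas3 and at chr1:173942493-173942742 on the minus strand for Ifi203, where it is the window of 1 of 2 RefSeq starts. The window of the other Ifi203 start, chr1:173942673-173942922, held 0 matches. The Ifi203 window shown overlaps the annotated span of the gene, chr1:173920407-173942672.
Oas3: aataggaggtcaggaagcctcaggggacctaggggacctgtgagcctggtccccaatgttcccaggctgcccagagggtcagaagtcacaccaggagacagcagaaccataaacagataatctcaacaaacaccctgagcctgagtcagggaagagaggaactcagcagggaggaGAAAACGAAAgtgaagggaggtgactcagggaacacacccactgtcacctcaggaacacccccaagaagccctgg
Ifi203: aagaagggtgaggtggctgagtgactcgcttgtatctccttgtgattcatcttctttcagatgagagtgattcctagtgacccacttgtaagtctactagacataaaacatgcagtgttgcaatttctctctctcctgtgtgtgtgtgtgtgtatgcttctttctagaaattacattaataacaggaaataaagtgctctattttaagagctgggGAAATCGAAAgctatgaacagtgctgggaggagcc
Oas3 makes the 2-5A signal that activates RNase L, and Ifi203 belongs to the family of intracellular DNA sensors. Oas3 was at 7.18, 8.002 and 14.1 FPKM in WT control and 2.25, 2.90 and 2.85 FPKM in WT IRI, and Ifi203 at 61.2, 71.0 and 67.6 FPKM in WT control and 29.4, 26.4 and 31.6 FPKM in WT IRI. The groups were separate in both, with differences of -1.50 (SE 0.24, adjusted p = 0.00862) and -1.17 (SE 0.20, adjusted p = 0.0121). A match describes the letters only, and no binding was measured.

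Further falls in this list were Ifi27l2a, at 48.3, 40.6 and 83.3 FPKM in WT control and 11.6, 16.5 and 12.2 FPKM in WT IRI (-1.97, SE 0.32, adjusted p = 0.00943), and Zbp1, a sensor of Z-form nucleic acid, at 33.2, 35.2 and 54.5 FPKM in WT control and 17.01, 17.5 and 16.7 FPKM in WT IRI (-1.18, SE 0.21, adjusted p = 0.0137). WT control 3 was the highest control library for both and for Oas3. Bst2, Isg20, Mx1, Ifit1, Xaf1 and Gbp2 fell too. Irf1 (71.0 to 85.4 FPKM) and Stat2 (18.7 to 24.8 FPKM) were the 2 genes with a difference above 0, and neither passed. When WT control 3 and WT IRI 3 were left out, the list's median was -0.68 and 1 gene, Oas3, passed (adjusted p = 0.041). There the differences of Oas3, Ifi203 and Zbp1 were -1.27 (adjusted p = 0.041), -1.21 (adjusted p = 0.066) and -0.95 (adjusted p = 0.0656).

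Antigen-processing genes that interferon induces fell within the proteasome list. Psmb8, Psmb9 and Psmb10 encode the 3 catalytic subunits of the immunoproteasome, and Psme1 a subunit of its activator. Psmb8 was at 102, 103 and 126 FPKM in WT control and 51.5, 50.4 and 39.0 FPKM in WT IRI, with all IRI values below all controls. Psmb8, Psmb9, Psmb10 and Psme1 had differences of -1.22 (SE 0.21, adjusted p = 0.0126), -1.08 (SE 0.23, adjusted p = 0.0295), -1.19 (SE 0.28, adjusted p = 0.0408) and -1.05 (SE 0.24, adjusted p = 0.0383). The constitutive counterparts Psmb5 (4.09 to 2.75 FPKM), Psmb6 (44.0 to 33.9 FPKM) and Psmb7 (21.5 to 14.8 FPKM) were among the 24 of 28 genes that did not pass, so that 4 of 28 fell, against 3.68% of all genes. All 4 calls were lost without WT control 3 and WT IRI 3, with adjusted p between 0.0949 and 0.221. In the endoplasmic reticulum list 5 of 20 genes fell, against 3.68% of all genes, and 0 rose. They are chaperones and disulfide isomerases, namely Pdia4 (32.1 ± 3.48 to 13.7 ± 1.71 FPKM, -1.17, SE 0.19, adjusted p = 0.00875), Calr (126 ± 6.19 to 66.7 ± 5.11 FPKM, -0.91, SE 0.17, adjusted p = 0.0177), Pdia3, Sdf2l1 and Hsp90b1. The stress-response regulators Xbp1 (21.9 to 23.4 FPKM), Atf4 (123 to 117 FPKM) and Ddit3 (21.2 to 18.5 FPKM) did not pass. Without WT control 3 and WT IRI 3 only Pdia4 of the 5 passed (adjusted p = 0.0437).

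The largest rise that passed was in Thbs1 (chr2:118111876-118127133 in GRCm38, plus strand), which encodes thrombospondin-1, a matrix protein that binds CD36 and CD47 and can activate latent TGF-beta. It was at 1.07, 0.623 and 0.357 FPKM in WT control and 45.3, 98.8 and 31.9 FPKM in WT IRI. The controls were at or below the mean of the olfactory receptor genes, and every IRI value was far above them, a difference of 5.01 (SE 0.63, adjusted p = 0.0033), and 5.21 (adjusted p = 0.0315) without WT control 3 and WT IRI 3. In the TGF-beta list only the co-repressor Tgif1 rose besides (17.6 to 39.1 FPKM, 1.12, SE 0.25, adjusted p = 0.0382), with Tgfb1 (42.1 to 29.1 FPKM), Smad7 (47.2 to 38.8 FPKM) and Skil (26.0 to 39.7 FPKM) among the 15 that did not pass. Tgif1 was lost without the 2 libraries (adjusted p = 0.116).

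Rises in the cAMP list centred on Ramp3 and Rapgef3. Ramp3, which pairs with the calcitonin receptor-like receptor to form an adrenomedullin receptor, was at 2.29, 2.64 and 2.29 FPKM in WT control and 35.8, 32.7 and 24.5 FPKM in WT IRI. Rapgef3, which encodes EPAC1, a guanine exchange factor opened by cAMP, was at 1.08, 0.451 and 0.216 FPKM in WT control and 10.8, 15.04 and 5.30 FPKM in WT IRI. Crem, a transcription factor that cAMP induces, was at 9.23, 15.4 and 10.7 FPKM in WT control and 40.6, 30.2 and 49.6 FPKM in WT IRI. In the 3 genes the lowest IRI library was well above the highest control, with differences of 3.22 (SE 0.27, adjusted p = 0.000629), 2.78 (SE 0.39, adjusted p = 0.00522) and 1.69 (SE 0.33, adjusted p = 0.0202). Sik1, a kinase gene that CREB activates, rose from 23.9 to 48.3 FPKM (0.98, SE 0.23, adjusted p = 0.0455), and the adenylyl cyclase Adcy7 fell from 61.7 ± 5.85 to 22.5 ± 2.24 FPKM (-1.42, SE 0.26, adjusted p = 0.0145). These 4 rises and 1 fall among 23 genes stand against 3.68% of all genes for falls and 1.56% for rises. The 18 that did not pass included the partner genes Ramp1 (15.3 to 8.53 FPKM) and Rapgef4 (11.95 to 6.28 FPKM), the phosphodiesterase Pde4d (19.4 to 35.1 FPKM, adjusted p = 0.0506) and Adora2a (17.2 to 13.4 FPKM). Crem, Sik1 and Adcy7 were lost without WT control 3 and WT IRI 3 (adjusted p = 0.153, 0.0656 and 0.109), and Ramp3 and Rapgef3 held.

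Socs3, which encodes a feedback inhibitor of cytokine receptors that use STAT3, rose with Stat3 itself. The 250 bases before its RefSeq start, at chr11:117969367-117969616 on the minus strand (GRCm38.p6), are shown because they hold TTCNNNGAA, the palindrome bound by STAT factors, in capitals 154 bases before the start.
Socs3: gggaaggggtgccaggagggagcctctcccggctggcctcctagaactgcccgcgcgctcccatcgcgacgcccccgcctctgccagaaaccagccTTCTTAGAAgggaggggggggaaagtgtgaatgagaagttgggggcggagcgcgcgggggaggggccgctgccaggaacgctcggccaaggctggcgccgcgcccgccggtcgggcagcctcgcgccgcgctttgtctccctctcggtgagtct
Such a match is present in 6.19% of all windows, and in 5.94% of the windows of genes that rose. Of the 13 genes of the SOCS and STAT3 list with a window, 1 held it, Socs3. That is 7.69%, against 7.48% of the 9489 genes with a window. The Socs3 window lies within the annotated span of the gene, chr11:117966079-117970047. Socs3 was at 23.2, 20.3 and 29.7 FPKM in WT control and 128, 153 and 105 FPKM in WT IRI. Every IRI value was far above the highest control, and the IRI mean was 5.26 times the control mean, a difference of 2.35 (SE 0.28, adjusted p = 0.00219). Stat3 was at 64.0, 70.4 and 61.4 FPKM in WT control and 147, 171 and 135 FPKM in WT IRI, with separate groups and a difference of 1.19 (SE 0.25, adjusted p = 0.0277). Bcl3, an atypical IkB protein that STAT3 and NF-kB both induce, rose from 12.1 ± 4.69 to 33.4 ± 3.003 FPKM (1.46, SE 0.28, adjusted p = 0.0197), and Stat5a from 9.30 to 15.9 FPKM (0.71, SE 0.15, adjusted p = 0.0278). In the list of 18 genes 4 rose, against 1.56% of all genes, and 1 fell, and the 13 that did not pass included Socs1 (32.0 to 35.2 FPKM), Cish (19.2 to 9.09 FPKM), Pim1 (63.5 to 107 FPKM) and the receptor chains Il6st (18.8 to 31.4 FPKM) and Il6ra (22.3 to 22.6 FPKM). Without WT control 3 and WT IRI 3, Socs3 and Bcl3 passed, and Stat3 and Stat5a did not (adjusted p = 0.121 and 0.138). Il4ra, the interleukin-4 receptor chain, rose from 34.6 ± 5.85 to 81.5 ± 20.7 FPKM (1.20, SE 0.22, adjusted p = 0.0166).

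Immediate early and NF-kB genes gave few calls. All 16 tested genes of the AP-1 list had a difference above 0, against 45.3% of all genes, with a list median of 0.41, and 2 rose, against 1.56%. Maff, a small MAF protein, was at 4.37, 4.30 and 5.69 FPKM in WT control and 20.3, 19.2 and 14.3 FPKM in WT IRI, and Fosl2, an AP-1 subunit, at 41.5, 44.2 and 32.6 FPKM in WT control and 99.4, 89.0 and 79.7 FPKM in WT IRI. Both were higher in every IRI library, by 1.70 (SE 0.22, adjusted p = 0.00342) and 1.17 (SE 0.22, adjusted p = 0.0197). The abundant members Fos (164 to 259 FPKM), Jun (195 to 269 FPKM) and Junb (351 to 457 FPKM) did not pass. In the NF-kB list 3 of 22 rose, against 1.56% of all genes, and Tnf fell. Birc3, an inhibitor of cell death, was at 37.5, 45.5 and 31.3 FPKM in WT control and 121, 114 and 90.6 FPKM in WT IRI, and Nfkbiz, an inducible nuclear IkB protein, at 43.8, 44.0 and 46.5 FPKM in WT control and 86.6, 95.9 and 88.7 FPKM in WT IRI. The groups were apart in both, with differences of 1.49 (SE 0.23, adjusted p = 0.00738) and 0.997 (SE 0.16, adjusted p = 0.00783). Dusp6, a phosphatase that ERK signalling induces, fell from 50.01 ± 2.85 to 18.1 ± 4.58 FPKM (-1.45, SE 0.23, adjusted p = 0.00924), and the TCR-induced factor Irf4 fell from 8.69 to 2.78 FPKM (-1.36, SE 0.31, adjusted p = 0.0405), while Nr4a1 (55.2 to 69.1 FPKM) and Egr1 (63.9 to 93.3 FPKM) did not pass. Fosl2, Dusp6 and Irf4 were lost without WT control 3 and WT IRI 3 (adjusted p = 0.0931, 0.0607 and 0.12).

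Of 23 genes known to respond to glucocorticoids, 20 had a difference above 0, against 45.3% of all genes, and 3 rose, against 1.56%, with a list median of 0.56. Mt1, which encodes the zinc-binding protein metallothionein-1, was at 7.99, 3.83 and 9.11 FPKM in WT control and 166, 89.2 and 23.9 FPKM in WT IRI. Fkbp5, a chaperone partner of the glucocorticoid receptor, was at 10.3, 10.5 and 11.5 FPKM in WT control and 36.5, 41.1 and 17.6 FPKM in WT IRI, and Cdkn1a, which encodes the cell cycle inhibitor p21, at 3.48, 1.61 and 1.73 FPKM in WT control and 18.0, 18.4 and 10.6 FPKM in WT IRI. In the 3 genes WT IRI 3 was the lowest IRI library but still above the controls, and the differences were 3.25 (SE 0.69, adjusted p = 0.0295), 1.39 (SE 0.31, adjusted p = 0.0354) and 2.36 (SE 0.33, adjusted p = 0.00501). Mt2, at 0.131, 1.145 and 2.29 FPKM in WT control and 82.3, 29.8 and 3.24 FPKM in WT IRI, had a larger difference of 3.47 that did not pass (SE 1.06, adjusted p = 0.107), and its IRI libraries were far apart from each other. Tsc22d3 (86.8 to 135 FPKM), Per1 (38.9 to 78.5 FPKM) and Il7r (69.2 to 134 FPKM, adjusted p = 0.0931) did not pass either. Nfil3, a transcription factor that represses clock genes and is induced by cytokines, was at 3.89, 2.14 and 1.92 FPKM in WT control and 16.4, 17.1 and 10.4 FPKM in WT IRI (2.11, SE 0.23, adjusted p = 0.00197). It was the single call among 17 clock genes, against 1.56% of all genes for rises and 3.68% for falls. Without WT control 3 and WT IRI 3 the glucocorticoid list had 3 rises, of the same genes, and a median of 0.81.

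Inhibitory receptors rose in 4 of 14 cases, against 1.56% of all genes, and 0 fell. Ctla4, which competes with CD28 for its ligands, was at 39.4, 41.1 and 30.5 FPKM in WT control and 126, 128 and 82.1 FPKM in WT IRI, Tigit, the inhibitory counterpart of CD226, at 16.4, 18.7 and 24.5 FPKM in WT control and 80.4, 48.3 and 43.9 FPKM in WT IRI, and Btla, a receptor for the TNF receptor HVEM, at 20.7, 20.3 and 14.8 FPKM in WT control and 55.9, 72.0 and 38.1 FPKM in WT IRI. Every IRI value exceeded every control, with differences of 1.56 (SE 0.24, adjusted p = 0.00749), 1.45 (SE 0.24, adjusted p = 0.0107) and 1.49 (SE 0.25, adjusted p = 0.0113). Pdcd1, which encodes PD-1, rose from 9.50 ± 2.09 to 23.5 ± 4.30 FPKM (1.23, SE 0.26, adjusted p = 0.0282), which was lost without WT control 3 and WT IRI 3 (adjusted p = 0.105). The remaining 10 did not pass and went both ways, with Havcr2 from 1.16 to 3.88 FPKM, Lag3 from 1.72 to 1.80 FPKM, Klrg1 from 6.36 to 1.30 FPKM and Vsir from 76.3 to 39.3 FPKM.

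Some of these genes are also known from regulatory T cells, but their lineage factor did not pass. Foxp3 was at 6.89, 9.25 and 7.90 FPKM in WT control and 12.6, 9.76 and 7.41 FPKM in WT IRI, with overlapping groups (adjusted p = 0.787), and Il2ra, the high-affinity interleukin-2 receptor chain, went from 9.73 to 8.34 FPKM (adjusted p = 0.868). Ikzf4, which encodes Eos, a partner of FOXP3, was at 1.57, 1.69 and 1.36 FPKM in WT control and 5.78, 5.98 and 7.37 FPKM in WT IRI. Its IRI libraries were all above the controls (1.53, SE 0.22, adjusted p = 0.00551), and the call was lost without WT control 3 and WT IRI 3 (adjusted p = 0.0578). In the list of 16, 4 rose (Ikzf4, Ctla4, Tnfrsf9 and Nt5e), against 1.56% of all genes, and Entpd1 fell. Ikzf2, which encodes Helios, went from 19.6 to 9.16 FPKM (adjusted p = 0.127) and Izumo1r, which encodes folate receptor 4, from 14.8 to 5.35 FPKM (adjusted p = 0.0531). In the Th17 list 0 of 11 genes passed in limma, against 5.24% of all genes, with 2 at an unadjusted p under 0.05. A list this short would hold few calls at 5.24%, so the 0 says little about its genes.

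Among cell survival and stress genes a few changed with separate groups. Bcl2l11, which encodes the pro-apoptotic protein BIM, was at 43.9, 53.4 and 34.4 FPKM in WT control and 165, 136 and 112 FPKM in WT IRI, and Trp53 was at 25.4, 25.9 and 25.9 FPKM in WT control and 12.5, 11.3 and 8.71 FPKM in WT IRI. Bcl2l11 rose by 1.63 (SE 0.23, adjusted p = 0.00501) and Trp53 fell by 1.19 (SE 0.21, adjusted p = 0.013), the latter lost without WT control 3 and WT IRI 3 (adjusted p = 0.0931). Of the p53 targets, Cdkn1a rose by 2.36, as given above, and Ccng1 fell from 34.2 to 17.2 FPKM (-0.94, SE 0.20, adjusted p = 0.0282), which was lost in that fit (adjusted p = 0.0604). Mdm2 (26.6 to 29.3 FPKM), Bax (24.1 to 20.3 FPKM) and Bbc3 (15.9 to 30.2 FPKM) did not pass. In the list of 21 genes of p53 and the BCL2 family Bcl2l11 and Cdkn1a rose and Trp53 and Ccng1 fell, against 3.68% of all genes for falls and 1.56% for rises. Hif1a, the oxygen-regulated transcription factor, was at 38.5, 51.5 and 47.8 FPKM in WT control and 130.0, 126 and 99.3 FPKM in WT IRI (1.35, SE 0.22, adjusted p = 0.00913). Of genes that HIF-1 is known to activate, Slc2a1 (9.31 to 13.9 FPKM), Vegfa (1.65 to 1.97 FPKM), Ldha (77.7 to 69.6 FPKM) and Pgk1 (14.6 to 8.47 FPKM) did not pass. The glycolytic genes Aldoa and Hk1, the glucose transporter Slc2a3 and the oxidase Ero1l fell, with differences of -1.19, -0.996, -1.15 and -1.02, and all 4 were lost without WT control 3 and WT IRI 3 (adjusted p = 0.147, 0.116, 0.167 and 0.147). Hmox1, the haem-degrading enzyme that NRF2 and haem induce, was at 3.10, 2.09 and 3.14 FPKM in WT control and 17.9, 17.5 and 7.71 FPKM in WT IRI (1.96, SE 0.31, adjusted p = 0.00856). Cat, which encodes catalase, fell (18.0 to 9.43 FPKM, -0.88, SE 0.19, adjusted p = 0.0336), with adjusted p = 0.189 without the 2 libraries. These were 1 rise and 1 fall among 24 NRF2 targets, against 1.56% of all genes for rises and 3.68% for falls. The other 22 did not pass, as was so for most genes. Of the 24, 16 were above 0 and 8 below, with a median of 0.23, against 45.3% of all genes above 0.

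Of 34 cell cycle genes 28 were below 0, against 54.7% of all genes, and 2 fell, a share near the 3.68% of all genes. They were Ccnd2 (cyclin D2, 97.6 ± 15.5 to 23.6 ± 4.24 FPKM, -2.002, SE 0.40, adjusted p = 0.0219) and Uhrf1 (a DNA methylation maintenance factor, 6.54 to 1.29 FPKM, adjusted p = 0.0364). Both were lost without WT control 3 and WT IRI 3 (adjusted p = 0.121 and 0.153). Mki67, the proliferation marker, went from 10.02 to 4.18 FPKM (adjusted p = 0.0719). Chek1, a DNA damage checkpoint kinase, rose from 1.85 ± 1.22 to 17.6 ± 2.44 FPKM (2.79, SE 0.42, adjusted p = 0.00681), with adjusted p = 0.0607 without the 2 libraries.

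Some large changes fell outside these groups or stood alone in their list. Neb, known as the gene of nebulin, a giant protein of muscle filaments, was at 2.22, 1.83 and 2.61 FPKM in WT control and 33.8, 37.7 and 24.4 FPKM in WT IRI (3.34, SE 0.39, adjusted p = 0.00219). Khdc3, best known from egg cells, was at 2.70, 1.29 and 0.788 FPKM in WT control and 12.5, 12.5 and 12.2 FPKM in WT IRI (2.44, SE 0.28, adjusted p = 0.00197). Both were low in all controls and similar across the IRI libraries. Klrb1f, an NK-type lectin receptor, fell from 8.66 ± 1.33 to 1.29 ± 0.235 FPKM (-2.07, SE 0.25, adjusted p = 0.00275). It was 1 fall among 9 genes of its list, against 3.68% of all genes. Ccl1, a T cell chemokine, fell from 4.55 ± 1.55 to 0.551 ± 0.677 FPKM (-1.89, SE 0.41, adjusted p = 0.0332), and Stip1, which links heat shock proteins 70 and 90, from 17.6 to 6.68 FPKM (-1.27, SE 0.23, adjusted p = 0.0143). The zinc transporter Slc39a6 fell from 10.5 to 5.42 FPKM (-0.85, SE 0.17, adjusted p = 0.021). S100a4, a calcium-binding protein of memory T cells and myeloid cells, was at 59.3, 53.1 and 94.8 FPKM in WT control and 11.1, 9.34 and 9.73 FPKM in WT IRI (-2.62, SE 0.37, adjusted p = 0.00545). WT control 3 was its highest library, and adjusted p = 0.0582 without WT control 3 and WT IRI 3. In that fit Ccl1, Stip1 and Slc39a6 did not pass either (adjusted p = 0.0852, 0.0694 and 0.109), and Neb, Khdc3 and Klrb1f did.

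Another group of rises is of genes best known from neutrophils, monocytes and injured tubule cells. Lcn2, which encodes the kidney injury protein NGAL and is also a neutrophil granule protein, was at 0.351, 0.877 and 1.67 FPKM in WT control and 84.1, 86.0 and 4.29 FPKM in WT IRI. WT IRI 3 was far below the other IRI libraries and still above every control (4.17, SE 0.96, adjusted p = 0.0397). S100a8, a calcium-binding protein abundant in neutrophils, was at 0, 0.938 and 0 FPKM in WT control and 13.8, 9.69 and 7.37 FPKM in WT IRI (3.14, SE 0.61, adjusted p = 0.0204), and Clec4d, a myeloid lectin receptor, at 0.0956, 0.149 and 0.0341 FPKM in WT control and 4.02, 8.64 and 4.63 FPKM in WT IRI (2.57, SE 0.29, adjusted p = 0.00197). Both genes were near 0 in the controls and clearly present in every IRI library. Cxcl2, a chemokine for neutrophils, was at 5.27, 1.20 and 0.679 FPKM in WT control and 19.2, 43.8 and 25.1 FPKM in WT IRI (3.33, SE 0.69, adjusted p = 0.0259), and Plaur, the urokinase receptor, at 7.72, 7.10 and 0.943 FPKM in WT control and 34.2, 55.3 and 25.8 FPKM in WT IRI (2.87, SE 0.59, adjusted p = 0.0251). In both the groups were apart but the controls scattered, and the calls for Cxcl2, Plaur and S100a8 were lost without WT control 3 and WT IRI 3 (adjusted p = 0.169, 0.0666 and 0.121). Abca1, the cholesterol exporter, rose from 3.17 ± 0.960 to 21.1 ± 8.92 FPKM (2.34, SE 0.37, adjusted p = 0.0086).

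Marker lists of other cell types were read beside these genes. The 8 tested markers of injured tubule summed to 6.94 to 17.7 FPKM in controls and to 50.7, 340 and 350 FPKM after IRI, led by Spp1 (3.03, 0.141 and 7.48 FPKM in WT control and 242, 239 and 35.6 FPKM in WT IRI), which did not pass (5.25, SE 1.29, adjusted p = 0.0524). Havcr1, the marker of injured proximal tubule, was at 0.151, 0.0891 and 0 FPKM in WT control and 1.33, 0.454 and 0.211 FPKM in WT IRI. The 9 tested neutrophil markers summed to 25.7 to 27.8 FPKM in controls and 32.0 to 72.8 FPKM after IRI. Their median difference was 1.60, with 7 above 0 and 2 below, against 45.3% of all genes above 0. In 5 of them every IRI value was above every control and in 1 below, against 10% and 20.0% of all genes. Past the threshold 1 rose and 1 fell, against 1.56% and 3.68% of all genes. S100a9 was at 0.0345, 0.445 and 0.371 FPKM in WT control and 11.7, 17.8 and 3.34 FPKM in WT IRI and did not pass (adjusted p = 0.0586). Ly6g, the defining surface marker of neutrophils, was at 4.09, 3.54 and 0.255 FPKM in WT control and 0.936, 2.54 and 1.53 FPKM in WT IRI, overlapping between groups, and the granule genes Ngp, Camp, Ltf, Elane and Mpo did not reach a mean of 1 FPKM. Mmp9, a neutrophil and T cell protease that is part of the neutrophil sum, fell from 15.2 ± 3.68 to 2.60 ± 0.323 FPKM (-2.15, SE 0.25, adjusted p = 0.00219). Uninjured proximal tubule markers overlapped between groups, with sums of 26.9 to 93.3 FPKM and 27.7 to 94.3 FPKM. The 14 dendritic cell markers, dominated by MHC class II genes, summed to 435 to 751 FPKM in controls and 178 to 337 FPKM after IRI, and the 17 macrophage and monocyte markers to 236 to 385 and 176 to 245 FPKM. B cell markers summed to 25.8 to 77.3 and 15.4 to 26.2 FPKM, and Ighm, the antibody mu chain gene, which is not typed as protein-coding and so is outside these sums, fell from 102, 80.8 and 79.4 FPKM to 26.8, 29.2 and 22.1 FPKM (-1.71, SE 0.26, adjusted p = 0.00706). Besides those already named, the marker genes that passed were Irf8 of dendritic cells (13.3 to 5.75 FPKM, adjusted p = 0.0428), Ehd3 of endothelium (13.1 to 5.03 FPKM, adjusted p = 0.0186) and Col1a1 of fibroblasts (5.24 to 0.210 FPKM, adjusted p = 0.0251), and all 3 fell. None of these 3 passed without WT control 3 and WT IRI 3 (adjusted p = 0.225, 0.134 and 0.153). Markers of these cells were detected in both groups, and their part in any change described here was not tested.

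**Figure D3:**
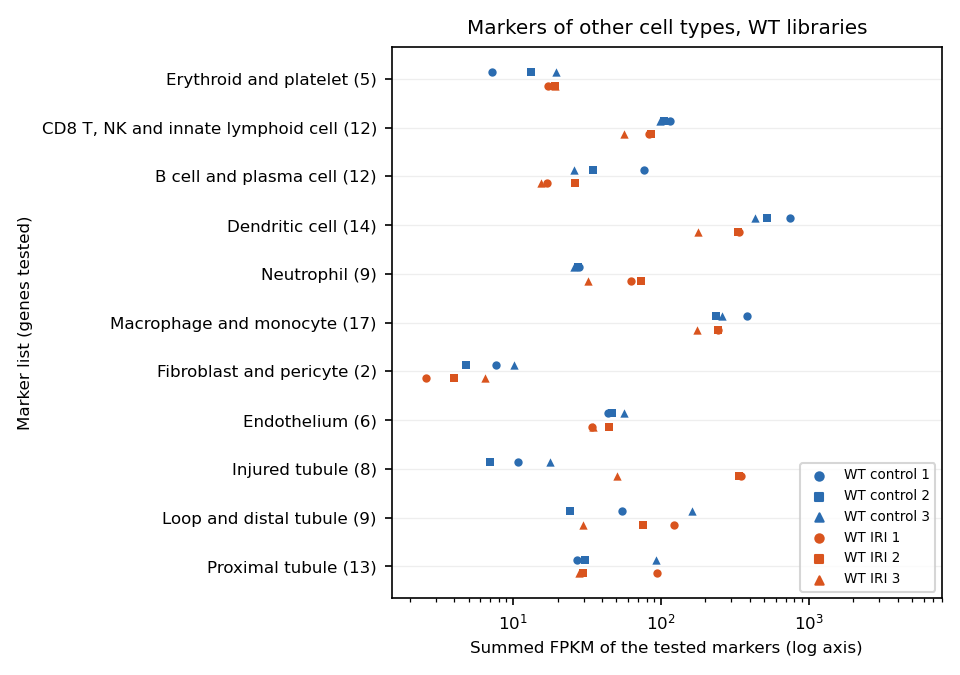
The summed FPKM of each marker list of another cell type is shown on a log axis for the 6 WT libraries, blue for control and orange for IRI, with the number of tested genes in brackets. The injured tubule sum is higher in all 3 IRI libraries and the dendritic cell sum lower in all 3, while the proximal tubule sums overlap.

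Several large gene groups gave no call. Of 42 cytosolic ribosomal protein genes and 33 respiratory chain genes 0 passed in limma, against 5.24% of all genes, with 1 and 3 at an unadjusted p under 0.05. At 5.24%, lists of this size would hold few calls. Their medians were -0.15 and -0.21, against -0.06 over all 12065 genes. Without WT control 3 and WT IRI 3 the same 0 was found in these lists. The plot of gene lists sets these beside most lists above. It leaves out the marker lists, the costimulatory and TNF family list and the list of p53 and the BCL2 family. Among the lists in that plot the interferon list had the lowest median (-0.90, next to -0.88 for the Ly6 list) and the glucocorticoid list the highest. Without WT control 3 and WT IRI 3 the Ly6 list was lowest (-0.77), followed by the homing list (-0.70) and the interferon list (-0.68). The glucocorticoid list stayed highest (0.81).

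**Figure D4:**
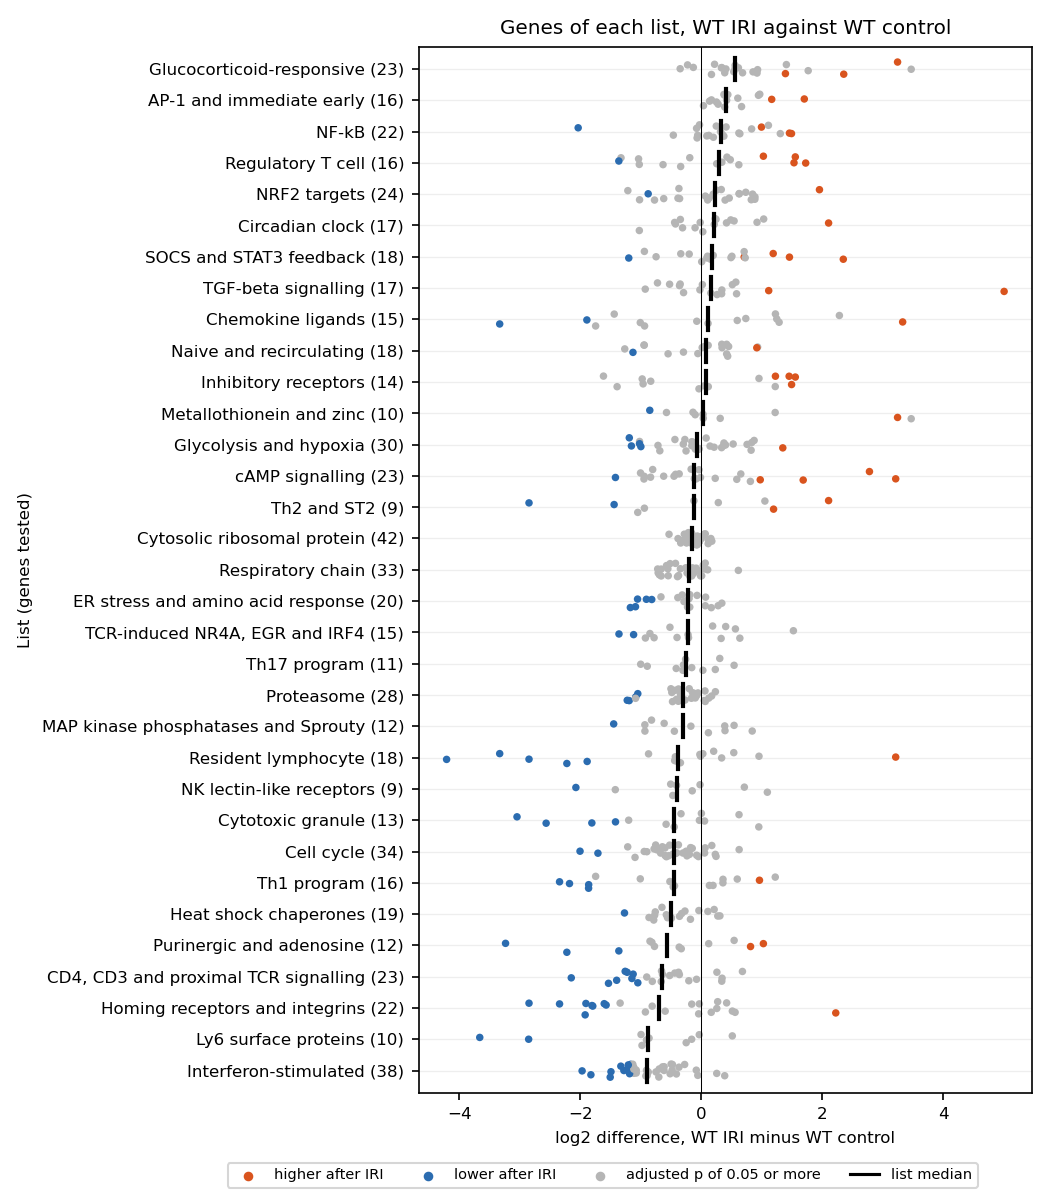
Each point is the log2 difference, WT IRI minus WT control, of 1 tested gene of a list, orange or blue where it rose or fell and grey where the adjusted p was 0.05 or more; the black bar is the list's median. The interferon-stimulated list has the lowest median, -0.90, and the glucocorticoid-responsive list the highest, 0.56.

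The response was then set beside that of CD4 Keap1 KO mice, measured in 6 other libraries. Both comparisons come from the same fit and share each gene's estimate of spread, so their calls are not separate tests. In KO, 59 genes (0.489%) rose and 86 (0.713%) fell. Of the 188 genes that rose in WT, 185 had a KO difference above 0 and 54 rose in KO, which is 28.7% of the WT genes and 91.5% of the 59. Among the 444 that fell in WT, 439 had a KO difference below 0 and 73 fell in KO, 16.4% of the WT genes and 84.9% of the 86. Over all 12065 genes 44.6% had a KO difference above 0. The median KO difference was 0.97 for the WT rises and -0.87 for the WT falls. Since these genes were chosen by their WT values, a smaller KO median is a description and not a test.

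The difference between the responses was tested directly as an interaction, and 0 of the 12065 genes (0%) passed in limma. The smallest adjusted p was 0.999, and 286 genes had an unadjusted p under 0.05. These 286 are fewer than that unadjusted threshold lets through on average when no gene differs. A fit without KO control 1 gave 2 genes past the adjusted threshold. Zfp683 and Xcl1 fell in KO too, with differences of -3.80 (adjusted p = 0.000656) and -3.15 (adjusted p = 0.00192). Ramp3, Thbs1 and Socs3 rose in KO too, with differences of 2.53 (adjusted p = 0.00408), 4.00 (adjusted p = 0.0191) and 2.66 (adjusted p = 0.00405). Among the genes named by the rule, the smallest unadjusted interaction p-values belonged to Cd40lg, Cd226 and Cxcr3. Their KO differences were -1.15 (adjusted p = 0.00973), -1.53 (adjusted p = 0.0111) and -1.22 (adjusted p = 0.0546), against -1.90, -2.53 and -2.34 in WT. The unadjusted interaction p was 0.00514, 0.00721 and 0.00906, and the adjusted p was 0.999 for each. Cd3e fell by 1.26 in WT, while in KO its difference was -0.52. In limma the adjusted p of that KO difference was 0.249 and the unadjusted interaction p was 0.0184. Since Cd40lg, Cd226, Cxcr3 and Cd3e were named for their WT calls, their weaker KO differences and unadjusted interaction p-values are a description and not a test.

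**Figure D5:**
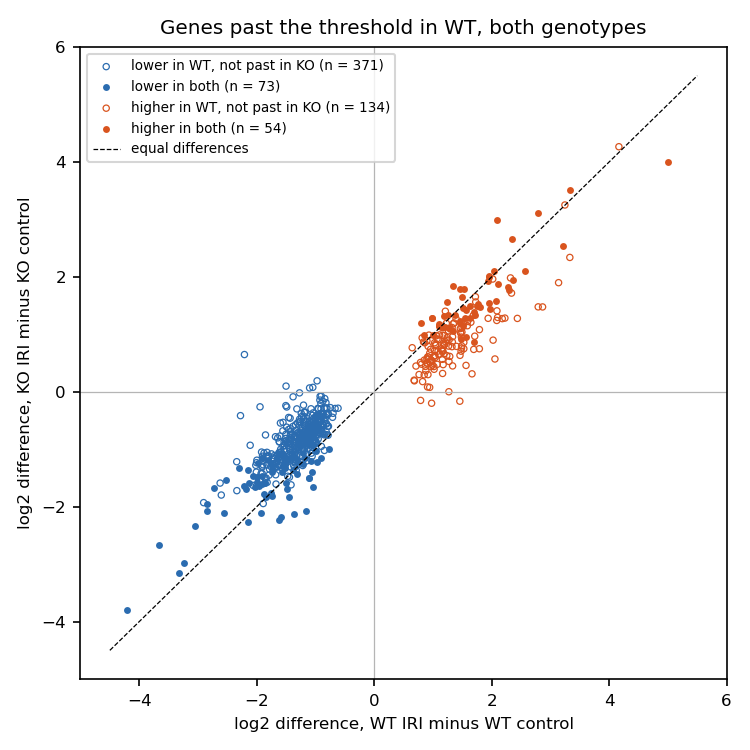
Each point is 1 of the 632 genes past the threshold in WT, with its log2 difference after IRI in WT on the horizontal axis and in KO on the vertical axis. Filled points passed in both genotypes (54 higher and 73 lower), open points passed in WT alone, and the dashed line marks equal differences.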

How the data were processed

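RNA of sorted kidney CD4 T cells was sequenced in 12 libraries, 3 for each of 4 groups, with a stranded total RNA kit and paired reads of 36 bp, per the labels' protocols. The authors deposited 1 table of FPKM values per gene and library, without counts, so depth and counting error are unknown. The tools listed in the submitters' processing notes, with no role for each, are Cufflinks 2.2.1, TopHat2 2.1.0, Partek 7.0 and bcl2fastq 2.17.1.14, and the build is GRCm38. The annotation, strand setting and filters they used are not given in the sources used here. Since FPKM is a share of a library's total, a few very abundant genes can shift all other values, which rescaling was used to check.

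Of 52632 genes, 52485 matched GENCODE mouse release 21, and 19288 reached 1 FPKM as the mean over all 12 libraries. These were fitted with limma 3.58.1 in R 4.3.3 on log2(FPKM + 1), with 4 group means and a variance trend. P-values were adjusted over all 19288 genes by the Benjamini-Hochberg method, and the 12065 protein-coding genes are reported. A difference on this scale understates the change of low genes. Overlapping genes and near-identical copies could share reads.

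The named genes were the 15 largest rises and 15 largest falls that passed with groups apart, without predicted genes, up to 4 genes past the threshold in each of 47 lists, and 8 genes that check the sort and genotype. Some of these genes are not reported here. The genes and lists were chosen with earlier results of these data known. The replicate numbers do not pair the libraries. The fit was tested on simulated data. Rescaling, other pseudocounts and filters, library weights, a fit of WT alone, a replicate block and leaving out libraries were tried as alternatives.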

Additional observations from a re-analysis of the deposited data

How the results depend on the processing

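All 103 named genes that passed kept their sign under every alternative that tested them, and the filter at a mean of 5 FPKM left 96 of them. Their groups were apart, so leaving out libraries or changing the pseudocount could not turn a sign, and kept signs there are no support. Of the 103, 63 passed in each planned fit other than the 2 blocked ones and those that left out a library. Without each library in turn 52 passed, and without WT control 3 and WT IRI 3 51 passed. Of 1451 recomputed list medians, 70 moved by more than the spread between libraries.

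Both the number of calls and the balance of rises and falls depended on the setting. Rises were 29.8% of all calls, but 51.4% without WT IRI 3, 60.6% without WT control 3 and WT IRI 3, and 43.4% with array weights. Against 632 genes (188 higher, 444 lower), median-ratio rescaling gave 1349 (528 higher, 821 lower), which held 631 of the 632, quantile normalization 1538 (604 and 934), and array weights 1866 (809 and 1057). A common sum for all libraries gave 298 higher. With only protein-coding genes fitted the count was 1169 (374 and 795), with no filter on low values 342 (104 and 238), and with the WT libraries alone 347 (80 and 267). Median-ratio rescaling moved the median over all genes from -0.06 to -0.01. Leaving out 1 library at a time gave 214 to 806 genes, 70 to 276 of them higher and 144 to 578 lower. The lowest total was without WT IRI 2 and the highest without KO control 2, and without WT control 1, 2 or 3 or WT IRI 1 or 2 the total was at most 300. Without WT control 3 and WT IRI 3, added after the data were seen, 188 genes passed (114 and 74), and 166 (100 and 66) without KO control 1 as well. That last fit gave 2 interaction calls, and leaving out single libraries gave 0 to 2, the 2 without KO control 1. The causes were not tested.

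A replicate block over all 12 libraries gave 485 genes, 139 higher and 346 lower. The block with WT libraries only gave 0, in a fit with few residual degrees of freedom. Deviations of same-numbered WT control and WT IRI libraries correlated at -0.02, 0.05 and 0.12, so the numbers were not read as a pairing. Without counts, the precision of low genes cannot be known, and values near 1 FPKM are at the level of the olfactory receptor genes.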

Other observations

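A set of cytoskeletal genes outside the lists, picked after their values were seen, was lower after IRI. Tmsb4x, which encodes thymosin beta 4, a protein that binds actin monomers, was at 1075, 1074 and 1414 FPKM in WT control and 289.9, 268 and 380.1 FPKM in WT IRI (-1.93, SE 0.31, adjusted p = 0.00863). Actb, which encodes beta-actin, was at 1546, 1563 and 2178 FPKM in WT control and 536, 520.1 and 621 FPKM in WT IRI (-1.64, SE 0.30, adjusted p = 0.0153). In both, all IRI libraries were far below the controls and WT control 3 was the highest library. Profilin-1 (Pfn1, 536 ± 87.7 to 171 ± 28.9 FPKM, -1.64), cofilin-1 (Cfl1, 125 ± 29.4 to 54.1 ± 4.53 FPKM, -1.17), coronin-1A (Coro1a, 371 ± 11.4 to 176 ± 29.8 FPKM, -1.08), L-plastin (Lcp1, 179.9 ± 25.7 to 57.7 ± 16.6 FPKM, -1.65) and filamin A (Flna, 127 ± 1.41 to 49.3 ± 8.21 FPKM, -1.36) passed as well, each as mean ± SD with n = 3. Without WT control 3 and WT IRI 3 none of these 7 genes passed, and adjusted p ran from 0.0515 for Tmsb4x to 0.188 for Coro1a. Of 9 Arp2/3 complex genes 2 fell and 0 rose, and of 7 septin genes 3 fell and 0 rose, with a septin median of -0.97. Over all genes 3.68% fell and 1.56% rose. Without the 2 libraries the Arp2/3 and septin falls were 0 and 1. Ahnak, a giant scaffold protein, fell from 139 ± 9.46 to 33.8 ± 1.47 FPKM (-2.003, SE 0.29, adjusted p = 0.00643), which was lost there as well (adjusted p = 0.0607).

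Further families were picked in the same way. Of 9 tested S100 genes 5 fell and S100a8 rose, against 3.68% of all genes for falls and 1.56% for rises. Their median was -1.13, and 1 fell and 0 rose without WT control 3 and WT IRI 3. S100a6 was at 41.8, 46.8 and 70.3 FPKM in WT control and 10.5, 10.5 and 14.2 FPKM in WT IRI (-2.06, SE 0.35, adjusted p = 0.011) and S100a10 at 132, 120.3 and 142 FPKM in WT control and 42.0, 37.0 and 47.8 FPKM in WT IRI (-1.62, SE 0.24, adjusted p = 0.00623). The groups did not overlap in either, and in that fit S100a10 passed (adjusted p = 0.0453) and S100a6 did not (adjusted p = 0.0711). Of 8 annexins, which bind membranes when calcium is present, 3 fell and 0 rose, against 3.68% of all genes for falls. Their median was -0.79. Of 8 GIMAP genes, which encode GTPases of lymphocyte survival, 3 fell and 0 rose, against 3.68% of all genes for falls. In the same fit 0 annexins and 0 GIMAP genes passed. Since these families were chosen after their values were seen, their counts are a description.

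Some further genes known from myeloid cells were picked after their values were seen because they rose. In the list of 17 macrophage and monocyte markers, by contrast, 14 were below 0, against 54.7% of all genes. Of that list 0 rose and 2 fell, against 1.56% and 3.68% of all genes, with a median of -0.23. Ccr1 was at 0.374, 0.966 and 0 FPKM in WT control and 5.46, 8.88 and 3.32 FPKM in WT IRI (2.22, SE 0.40, adjusted p = 0.0149), Cxcr1, an interleukin-8 receptor, at 0.0563, 1.31 and 0 FPKM in WT control and 2.95, 4.40 and 5.60 FPKM in WT IRI (1.95, SE 0.35, adjusted p = 0.0139), and Vcan, the proteoglycan versican, at 0.504, 1.21 and 0.273 FPKM in WT control and 6.98, 10.9 and 4.54 FPKM in WT IRI (2.32, SE 0.42, adjusted p = 0.0145). Mmp19, a matrix protease, was at 0.352, 0.223 and 0.0741 FPKM in WT control and 4.74, 7.01 and 2.59 FPKM in WT IRI (2.18, SE 0.40, adjusted p = 0.0153). In each gene the controls were near or below the level of the olfactory receptor genes. Of these 4, Mmp19 passed without WT control 3 and WT IRI 3 (adjusted p = 0.0477), and Ccr1, Cxcr1 and Vcan did not (adjusted p = 0.0567, 0.106 and 0.0656).

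Lars2 had a difference of 4.37 that did not pass (SE 2.35, adjusted p = 0.378). It was at 1707, 3637 and 0 FPKM in WT control and 4420.2, 2092 and 5955 FPKM in WT IRI, so that 1 control library at 0 set the difference. The exonic length of the genes that rose had a median of 5192 bases, that of the genes that fell 3764 bases, and that of all 12065 genes 4496 bases.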
